A study of Mus musculus with 4 samples.

Results

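CD4 conventional T cells are the helper T cells that carry an αβ receptor and the CD4 co-receptor and are not regulatory. They were chosen by their transcripts from droplet libraries of sorted CD45+ cells of control mouse skin and skin tumors. A barcode was kept when it held at least 1000 unique molecular identifiers (UMIs, which count transcripts) with at most 15% of them mitochondrial. A kept cell was a member when it held at least 1 UMI of Cd4, at least 2 of Trac and Cd3e together, none of Cd8a, Cd8b1 or Foxp3, at most 1 of Ikzf2, at most 3 of Trdc, at most 1 of Csf1r and at most 2 of Top2a and Mki67 together. This gave 216 members of 13124 kept cells, out of 14795 barcodes. The members numbered 63 in control skin 1, 24 in control skin 2, 76 in skin tumor 1 and 53 in skin tumor 2.

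The study asked how skin immune cells change as an epidermal tumor grows. All host mice were C57BL/6, female and male and between 8 and 10 weeks old at injection per the methods, with genotype C57/BL6 in the labels. Control skin came from uninoculated animals. Skin tumors grew for 2 weeks after subcutaneous flank injection of 2323 cells, so that tumors of injected cells of 1 line stand for the disease. This single line was derived from a mouse model with K14rtTA and tetOCre, in which a keratin 14 promoter drives rtTA, the activator of the inducible Cre. Tissue was digested with 0.5% collagenase IV for 2 h and sorted as CD45+ DAPI- cells, and 1 library was made from each of 2 control skins and 2 skin tumors. The labels number the replicates without saying which animal each came from, so p-values measure only the spread between these libraries. Transcripts of Y genes and none of Xist were found in the members of all 4 libraries.

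CD4 T cells recognize peptides on MHC class II molecules through the T cell receptor and are co-stimulated through CD28 and ICOS. They help other cells through CD40 ligand and secreted cytokines, with IFN-γ as the main product of Th1 cells and IL-4, IL-5 and IL-13 as those of Th2 cells. In skin many of them stay for long periods as resident memory cells, held by the integrin CD103, whereas tumors draw T cells from the blood and expose them to antigen for long and to interferons.

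The label was checked against markers. Trac, which the gate uses and which is therefore no check, was detected in 93.7%, 95.8%, 90.8% and 92.5% of members in control skins 1 and 2 and skin tumors 1 and 2. Cd40lg, which the gate did not use, was detected in 71.4%, 66.7%, 47.4% and 47.2% of members, and in between 0% and 1.05% of gated macrophages. In CD8 T cells gated in the same way, Cd40lg was detected in 37.4%, 24.4%, 1.99% and 2.63% of cells, and in Foxp3 regulatory T (Treg) cells in at most 14.9%. The share with Cd40lg was higher in members than in these other cells in all 4 libraries. Transcripts of other cell types were found in members. Among members, 31, 12, 37 and 30 held 3 or more UMIs of MHC class II, Lyz2 and C1q genes, which T cells of mice do not normally make. The class II gene H2-Ab1 was detected in 61.9%, 45.8%, 51.3% and 45.3% of members and in 60.0%, 55.6%, 47.0% and 60.5% of CD8 T cells. Both Ctla4 and Il2ra, which Foxp3 Treg cells express, were held by 6, 3, 11 and 20 members. Whether these transcripts came from other cells inside the gate was not tested.

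The members just inside and just outside the gate were counted. Of the 216 members, 75 held a single Cd4 UMI, and 218 other cells failed on the Cd4 term alone, with no Cd4 UMI. Those 218 cells were split unevenly: control skin 1 held 97, control skin 2 held 62, skin tumor 1 held 46 and skin tumor 2 held 13. Whether they lacked Cd4 transcripts or held some that were not captured was not tested. The Cd4 term thus bears on the shares of members given below. For Ikzf2, 37 members held 1 UMI and 16 cells that met every other term held 2. The members with that 1 UMI numbered 5 and 1 in control skins 1 and 2 and 17 and 14 in skin tumors 1 and 2. Cells that failed on the Ikzf2 term alone numbered 7, 8, 46 and 36 in the same order, so this edge was uneven too. For Foxp3 and for Cd8a with Cd8b1, 7 and 9 cells that met every other term held 1 UMI. Cell Ranger barcodes were shared by pairs of libraries in 23 cases, and in 0 of these was the barcode a member in both libraries.

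The 4 libraries held 50932896, 52784293, 73904272 and 34893543 UMIs in total, of which 538949, 201646, 590186 and 466023 fell in the members. The median member held 7659, 7209, 6182.5 and 7854 UMIs and 2294, 2495, 2165 and 2569 genes, so depth per cell did not separate the groups. Control skin 2 had the fewest cells and gives the least precise sums. UMIs were summed over the members of each library and are given as CPM, counts scaled to a common library size by TMM. On the log scale these sums correlated at 0.902 between the control skins, at 0.919 between the skin tumors and at 0.770 to 0.822 across groups (Pearson's r across genes, which are not independent replicates).

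The share of members did not separate the groups. They were 2.02% of kept cells in control skin 1 (95% Clopper-Pearson interval 1.56 to 2.58%), 0.752% in control skin 2 (0.483 to 1.12%), 1.58% in skin tumor 1 (1.25 to 1.97%) and 2.64% in skin tumor 2 (1.98 to 3.44%), intervals that cover counting error only. The skin tumor mean of 2.11% ± 0.751 (SD, n = 2) and the control mean of 1.39% ± 0.899 (SD, n = 2) differed by less than the spread between libraries (two-sided exact permutation test, p = 0.667, where 0.333 is the smallest that 2 against 2 allows). Among gated αβ T cells, members were 29.9%, 22.6%, 24.7% and 38.4% in the same order, beside 349 CD8 T cells and 198 Foxp3 Treg cells. That difference of 5.29 percentage points also had p = 0.667 in the exact permutation test, and without skin tumor 2 it was -1.57 points.

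**Figure D1:**
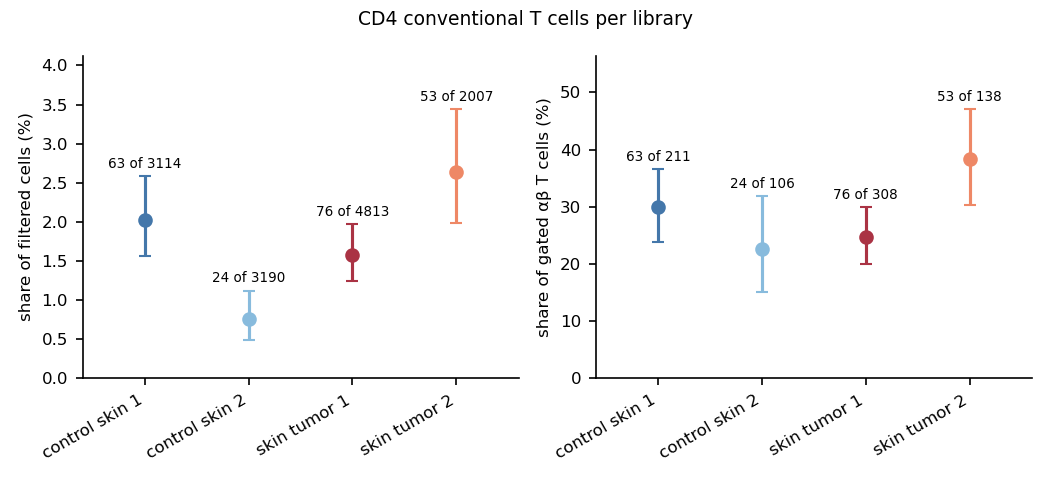
Share of CD4 conventional T cells by library, as a percentage of kept cells (left) and of gated αβ T cells (right), with 95% Clopper-Pearson intervals and the cell numbers beside each point. The 2 skin tumors lie on both sides of control skin 1 in each panel, so the groups overlap.

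Within the members, many genes changed with the tumor. On the sums, 568 of 5977 genes tested by the quasi-likelihood method of edgeR passed an adjusted p of 0.05 (Benjamini-Hochberg over all genes tested), which is 9.50%. Of these, 281 (4.70%) were higher and 287 (4.80%) lower in skin tumors. Counts of list members called are read against these shares, with the median log2 fold change of all genes tested at 0.00385. Lists are described over the members that passed the filter on low counts, and a gene seen in 1 group alone passes that filter only where it is high. The number of calls depends on which cells are gated: it was 147 when cells with 3 or more MHC class II and macrophage UMIs were left out, and 74 when cells with a UMI of Ctla4 or Il2ra were left out, which kept 26, 3, 27 and 9 cells.

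Icos and Cd28, co-stimulatory receptors that start and sustain helper responses, were lower in skin tumors. Icos (chr1:60977927-61000320, GRCm38), which binds the ICOS ligand of antigen-presenting cells, was at 3213 and 3208 CPM in control skins and at 529 and 530 CPM in skin tumors. The groups were far apart, and the members with a UMI of Icos went from all 63 and 24 to 62 of 76 and 42 of 53. Its log2 fold change was -2.60 ± 0.217 (SE, adjusted p = 0.000432, edgeR), and it stayed past the threshold under every alternative tried in which it was tested. Cd28, the principal co-stimulatory receptor, was at 1463 and 1432 CPM in control skins and 462 and 408 CPM in skin tumors (-1.73 ± 0.217, adjusted p = 0.00176, edgeR).

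Cd40lg (chrX:57212143-57224042), the ligand through which helper cells license B cells and dendritic cells, was at 317 and 260 CPM in control skins and 140 and 104 CPM in skin tumors. The groups did not overlap, and the log2 fold change was -1.24 ± 0.265 (adjusted p = 0.0175, edgeR). The call on Cd40lg was lost without control skin 1 or without skin tumor 2, and when cells with Il2ra or with MHC class II and macrophage UMIs were left out, while its direction held. Of the 17 members tested of 18 listed for CD4 help, 3 were lower (Icos, Cd28 and Cd40lg) and 3 higher (Cd70, Il21 and Cd81), with a median log2 fold change of 0.41. Cd70, a ligand that co-stimulates CD27-bearing T cells, had no UMI in control skins and 24.0 and 57.7 CPM in skin tumors, at least 8.86-fold higher when the control group is given a floor of 3 counts, the floor used throughout. Il21, the cytokine of follicular helper cells, was likewise 0 in control skins and 22.2 and 24.4 CPM in skin tumors (at least 5.31-fold higher). For Cd81, a tetraspanin, 52.1% of gated macrophages held a UMI in cells thinned to 3000 UMIs, against 12% and 24.5% of skin tumor members, and the part of macrophage RNA in its rise was not tested. The transcript of the cytokine IL-2 was at 42.4 and 36.5 CPM in control skins and 0 and 11.1 CPM in skin tumors, which did not pass the test (adjusted p = 0.0552, edgeR).

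Components of the T cell receptor moved both ways. Cd3g, a chain of the CD3 signaling complex, was at 361 and 318 CPM in control skins and 880 and 1028 CPM in skin tumors (1.48 ± 0.229, adjusted p = 0.00417, edgeR), and Themis, a signaling protein of developing and mature T cells, rose by 1.33 and the β chain constant gene Trbc2 by 1.31 on the log2 scale. Cd247, the ζ chain, rose by 0.99 (adjusted p = 0.0291, edgeR). Cd5, which dampens receptor signaling, was at 781 and 719 CPM in control skins and 315 and 266 CPM in skin tumors (-1.37 ± 0.228, adjusted p = 0.00591, edgeR), and Cd6 and the kinase gene Zap70 were lower by -1.09 and -1.02. Altogether 4 of 18 tested genes were higher and 3 lower. In members with fewer than 3 MHC class II and macrophage UMIs 0 of 18 passed in edgeR, and 7 had an unadjusted p under 0.05. Of all 3392 genes tested in that gate only 147 passed, so few of 18 would be called at that share. Trat1, an adaptor of the receptor complex that the list does not hold, was at 1669 and 1391 CPM in control skins and 164 and 135 CPM in skin tumors (-3.35 ± 0.249, adjusted p = 0.000432, edgeR), among the largest falls of any abundant gene.

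**Figure D2:**
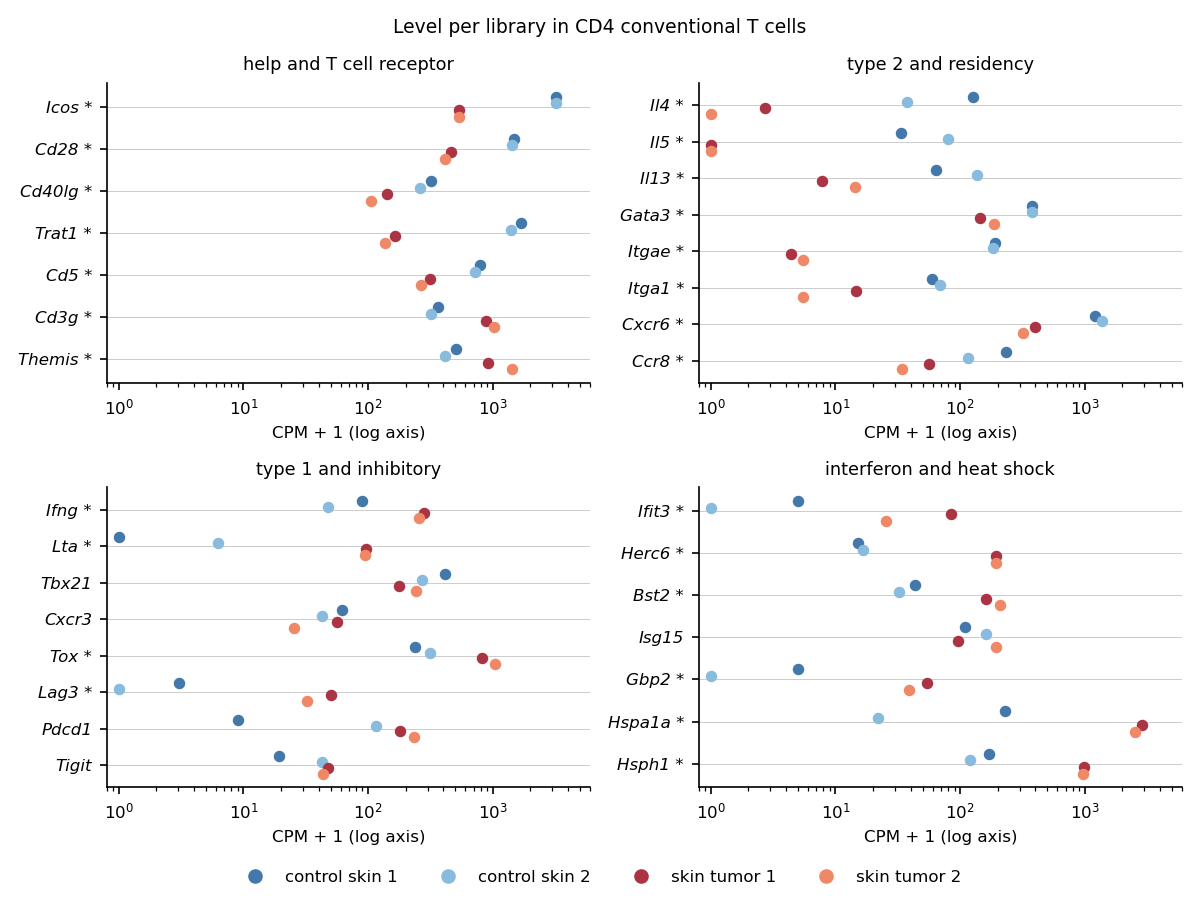
CPM plus 1 (log axis) of selected genes in the 4 libraries, grouped into help and T cell receptor, type 2 and residency, type 1 and inhibitory, and interferon and heat shock genes. Each point is a library, and an asterisk marks an adjusted p under 0.05 (edgeR). Icos, Trat1, Itgae and Cxcr6 lie lower and Herc6, Tox and Hsph1 higher in both skin tumors, while the points of Isg15 and Cxcr3 mix.

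Genes of skin residency fell. Of 15 tested members of 19 listed, 9 were lower (Itgae, Itga1, Rgs2, Cxcr6, Vps37b, Crem, Rgs1, Cd44 and Selplg) and 1 higher (P2rx7), with a median log2 fold change of -1.35, against 4.80% of all genes lower. Itgae (chr11:73090583-73147446), which encodes the αE chain of CD103 that binds E-cadherin of keratinocytes, was at 190 and 182 CPM in control skins and 3.42 and 4.44 CPM in skin tumors. It was seen in 33 of 63 and 12 of 24 control members and in only 2 of 76 and 2 of 53 skin tumor members, and its log2 fold change was -5.49 ± 0.439 (adjusted p = 0.000432, edgeR). In cells thinned to 3000 UMIs, 24.2% and 26.1% of control members held an Itgae UMI, against 2.67% and 0% of skin tumor members and 1.74% of macrophages, so the skin tumor share was near the level in cells that should lack it.

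Other genes of tissue retention moved with Itgae. Itga1, the collagen-binding integrin chain CD49a, was at 58.5 and 67.7 CPM in control skins and 13.7 and 4.44 CPM in skin tumors (-2.67 ± 0.563, adjusted p = 0.0166, edgeR). Cxcr6, a chemokine receptor of resident cells, was at 1203 and 1364 CPM in control skins and 395 and 320 CPM in skin tumors (-1.84 ± 0.231, adjusted p = 0.00176, edgeR). Rgs2 and Rgs1, which damp G protein signaling of chemokine receptors, changed by -2.17 and -1.47 on the log2 scale. Cd69, the surface lectin that also marks recent activation, was at 157 and 177 CPM in control skins and 175 and 202 CPM in skin tumors, so that it overlapped and did not pass the test (adjusted p = 0.725, edgeR). P2rx7, a receptor of extracellular ATP, had no UMI in control skins and 59.9 and 42.2 CPM in skin tumors (at least 12-fold higher). In cells without a UMI of Ctla4 or Il2ra, 4 of 11 tested residency genes were lower, against 25 of all 2562 genes. In cells with fewer than 3 MHC class II and macrophage UMIs 6 of 12 were, against 61 of all 3392 genes.

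Chemokine receptors and integrins other than these differed in both directions. Ccr8, a receptor of skin-homing and type 2 cells, was at 230 and 115 CPM in control skins and 54.8 and 33.3 CPM in skin tumors (-2.0 ± 0.402, adjusted p = 0.0137, edgeR), and Ccr2 changed by -1.85. Ccr7, which guides T cells to lymph nodes, was at 36.3 and 26.0 CPM in control skins and 128 and 268 CPM in skin tumors (2.58 ± 0.446, adjusted p = 0.00688, edgeR), but 1 cell held 63.6% of its UMIs in skin tumor 2. Of 14 tested chemokine receptors, 2 were higher and 4 lower. Itga4, the α4 chain that carries T cells across inflamed vessels, was at 30.3 and 0 CPM in control skins and 270 and 300 CPM in skin tumors (3.78 ± 0.529, adjusted p = 0.00285, edgeR), and 38 and 31 skin tumor members held a UMI. Of 15 tested integrins and adhesion genes 1 was higher and 5 lower, of which 4 are also residency genes. The naive and recirculation list held 3 higher genes of 13 tested (Ly6c2, Ccr7 and Klf2) and 1 lower (Bach2). Ly6c2, which the study used as a monocyte marker, had 69.0% of its skin tumor 2 UMIs in 1 cell. Tcf7 and Lef1, transcription factors of naive and stem-like T cells, overlapped between groups.

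Genes of type 2 help were lower in skin tumors. Of 11 tested members of 15 listed, 7 were lower (Il5, Il4, Calca, Il13, Il1rl1, Ccr8 and Gata3) and 0 higher, with a median log2 fold change of -2.0, against 4.80% of all genes lower. Il4 was at 125 and 36.5 CPM in control skins and 1.71 and 0 CPM in skin tumors, which rests on 62, 7, 1 and 0 UMIs in 24, 2, 1 and 0 cells. The ratio of skin tumors to control skins for Il4 was 0.00963 (95% counting interval 0.00024 to 0.0555, adjusted p = 0.00402, edgeR). Il13 was at 62.6 and 135 CPM in control skins and 6.85 and 13.3 CPM in skin tumors (-3.21 ± 0.580, adjusted p = 0.00855, edgeR), and Il5 at 32.3 and 78.1 CPM in control skins and 0 in skin tumors, at least 15.6-fold lower, although in control skin 2 single cells held 73.1% of the Il13 UMIs, 86.7% of those of Il5 and 85.7% of those of Il4. The groups did not overlap for any of these cytokines.

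Gata3, the lineage factor of Th2 cells, was at 375 and 375 CPM in control skins and 144 and 186 CPM in skin tumors (-1.19 ± 0.247, adjusted p = 0.0158, edgeR). Its call was lost without control skin 1 and in several of the narrower gates, without a change of direction. Calca, which encodes the neuropeptide CGRP, was at 240 and 255 CPM in control skins and 0 and 11.1 CPM in skin tumors, and Il1rl1, the receptor of the alarmin IL-33, changed by -2.04. In control skin 2, single cells held 81.0% of the Il1rl1 UMIs and 46.9% of those of Calca. Counted by cell, 30 of 63 and 7 of 24 control members held a UMI of Il4, Il5 or Il13, against 2 of 76 and 4 of 53 skin tumor members. Of the Th2 list, 6 genes also mark group 2 innate lymphoid cells, whose list sum was 1108 and 1359 CPM in control skins and 298 and 462 CPM in skin tumors with Gata3 the most abundant gene, and a part of such cells in the fall was not tested. Without members that held a γδ receptor transcript, 3 of 9 tested Th2 genes were lower, against 198 of all 5658 genes, and Il13 lost its call. Fewer Th2 genes also passed without control skin 1.

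Genes of type 1 effector cells were higher in part. Ifng (chr10:118441046-118445892) was at 88.8 and 46.9 CPM in control skins and 281 and 255 CPM in skin tumors, seen in 21, 4, 33 and 23 cells. The skin tumors lay above both control skins, with a log2 fold change of 1.88 ± 0.315 (adjusted p = 0.00591, edgeR), and after thinning 19.4%, 13%, 29.3% and 34.0% of members held an Ifng UMI, against 0.145% of macrophages. Lta, lymphotoxin α, was at 0 and 5.21 CPM in control skins and 95.8 and 93.2 CPM in skin tumors, a ratio of 65.1 (counting interval 11.4 to 2597, adjusted p = 0.00245, edgeR) spread over 16 and 17 cells. The chemokines Ccl3 and Ccl4 also rose, yet single cells held 47.4% and 89.5% of the Ccl3 UMIs of skin tumors 1 and 2, and 64.5% and 70.1% of those of Ccl4.

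The lineage factor of Th1 cells did not go with Ifng. Tbx21, which encodes T-bet, was at 412 and 271 CPM in control skins and 175 and 242 CPM in skin tumors (-0.74, adjusted p = 0.136, edgeR), and the Th1 chemokine receptor gene Cxcr3 overlapped between groups. Of 19 tested Th1 genes 5 were higher (Ccl3, Lta, Ccl4, Ifng and Bhlhe40) and 0 lower, with a median of 0.489 and against 4.70% of all genes higher. With Ikzf2 and Il2ra both required to be 0, 0 of 15 tested Th1 genes passed in edgeR (4 with an unadjusted p under 0.05), and the change of Ifng was 0.91 (adjusted p = 0.204). Of all 3885 genes tested in that gate only 83 were higher, so few of 15 would be called at that share. Some control members held transcripts of both programs: 26 of 63 and 4 of 24 had a UMI of Ifng or Tbx21 together with one of Il4, Il5 or Il13, against 2 and 2 in skin tumors. Counted singly, a UMI of Ifng or Tbx21 was held by 50, 16, 48 and 36 members of control skins 1 and 2 and skin tumors 1 and 2. A UMI of Il4, Il5 or Il13 was held by 30, 7, 2 and 4. Whether the programs met in a cell more often than these counts give was not tested.

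Genes of other helper programs were sparse. The 17 UMIs of Il17a, the cytokine of Th17 cells, came from 1 cell of skin tumor 1. Il23r, the receptor chain of IL-23, was at 0 and 5.21 CPM in control skins and 42.8 and 22.2 CPM in skin tumors (ratio 23.3, interval 3.91 to 944, adjusted p = 0.0304, edgeR), and was 1 of 3 higher genes among 8 tested of the Th17 list, of which 0 passed in DESeq2 or limma-voom (4 and 5 with an unadjusted p under 0.05). Among 7 tested follicular helper and stem-like genes, Cd200 (ratio 41.5, interval 11.3 to 347) and Slamf6 were higher, whereas Bcl6, the lineage factor of follicular helper cells, was at 242 and 354 CPM in control skins and 101 and 153 CPM in skin tumors (-1.21 ± 0.303, adjusted p = 0.0336, edgeR).

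Exhaustion genes rose in part. Tox (chr4:6686353-6991557), a chromatin factor of T cells under lasting stimulation, was at 238 and 312 CPM in control skins and 820 and 1045 CPM in skin tumors. It was seen in 18 of 63 and 12 of 24 control members and in 49 of 76 and 40 of 53 skin tumor members, and its log2 fold change was 1.78 ± 0.254 (adjusted p = 0.00317, edgeR). Lag3, an inhibitory receptor for MHC class II, was at 2.02 and 0 CPM in control skins and 49.6 and 31.1 CPM in skin tumors (ratio 28.6, interval 4.86 to 1154, adjusted p = 0.0113, edgeR), in 12 and 10 skin tumor members. Nrgn, a calmodulin-binding protein, had a ratio of 86.4 (interval 15.2 to 3437).

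Pdcd1, which encodes the inhibitory receptor PD-1, was at 8.07 and 115 CPM in control skins and 180 and 231 CPM in skin tumors. The skin tumors lay above both control skins, but the change did not pass the test (2.13 ± 0.722, adjusted p = 0.0953, edgeR). In control skin 2, 1 of the 5 cells with a Pdcd1 UMI held 50% of them. The change passed in limma-voom and without control skin 2, skin tumor 1 or skin tumor 2. Tigit, Havcr2 and Ctla4 did not pass (adjusted p = 0.421, 0.200 and 0.261, edgeR), and Ikzf3, the factor Aiolos, was at 1015 and 901 CPM in control skins and 192 and 222 CPM in skin tumors (-2.21 ± 0.233, adjusted p = 0.000852, edgeR). Of 12 tested genes in the exhaustion list, 5 were higher and 1 lower, with a median of 1.15. Cells with Ifng and Pdcd1 together numbered 3, 1, 22 and 17, and those with at least 2 of the 5 inhibitory receptor genes were 17.5%, 41.7%, 42.1% and 67.9% of members. Control skin 2 and skin tumor 1 hardly differed in that share.

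Many antiviral interferon-stimulated genes were higher in skin tumors. Of 35 tested members of 42 listed, 19 were higher and 0 lower with 34 positive, at a median log2 fold change of 2.07, against 4.70% of all genes higher. With no filter on low counts it was 27 of 42, against 549 of all 14401 genes. Herc6, a ubiquitin-like ligase of the interferon response, was at 14.1 and 15.6 CPM in control skins and 192 and 191 CPM in skin tumors (3.69 ± 0.374, adjusted p = 0.000756, edgeR), in 38 and 29 skin tumor members. Ifit1 (chr19:34640871-34650009), which binds viral RNA ends, was at 10.1 and 0 CPM in control skins and 101 and 82.1 CPM in skin tumors (3.65 ± 0.612, adjusted p = 0.00591, edgeR), with 51.4% of the Ifit1 UMIs of skin tumor 2 in 1 of the 8 cells that held it. Bst2, tetherin, was at 42.4 and 31.2 CPM in control skins and 161 and 209 CPM in skin tumors (2.25 ± 0.342, adjusted p = 0.00399, edgeR). In each case both skin tumors lay above both control skins.

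Not every gene of that list moved. Ifit3 was at 4.04 and 0 CPM in control skins and 83.9 and 24.4 CPM in skin tumors (ratio 19.9, interval 5.28 to 168, adjusted p = 0.0255, edgeR), and its reads may be shared with the near-identical Ifit3b. Ifit2 was at 4.04 and 10.4 CPM in control skins and 59.9 and 22.2 CPM in skin tumors and did not pass (2.76 ± 0.784, adjusted p = 0.0544, edgeR). Isg15, a ubiquitin-like interferon-induced protein, was at 109 and 161 CPM in control skins and 94.1 and 193 CPM in skin tumors, an overlap with no change past the test (0.12 ± 0.382, adjusted p = 0.889, edgeR). The Ifi203, Ifi208, Ifi209 and Ifi213 genes are near copies of each other and their separate calls are uncertain. Macrophages also express this list. In members with fewer than 3 MHC class II and macrophage UMIs 4 of 16 tested genes were higher at a median of 1.73, against 86 of all 3392 genes. Bst2 was then no longer past the threshold, Herc6 was still past it and Ifit1 was not tested. Without the 3 members removed as doublets 14 of 34 were higher, against 244 of all 5944 genes tested. In DESeq2 it was 11 of 35, against 152 of 5977, and fewer also passed without control skin 1.

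Promoters of these genes were read to show the sequence on which interferon signaling acts. The interferon-stimulated response element is bound by STAT and IRF factors and was searched as GAAANNGAAA on both strands (TTTCNNTTTC on the other) in the 250 bases before each RefSeq start (GRCm38.p6). It was present in 2.98% of 32851 promoters and 3.46% of 27025 genes, in 9 of 15 called antiviral genes with a promoter entry and in 5 of 15 tested but not called. A match is a description of letters and not of binding. The windows of 90 bases below are written 5′ to 3′ on the gene's strand with matches in capitals, for 3 called genes and for Isg15, which holds the letters and did not pass the test. They lie at chr19:34640764-34640853 (+) for Ifit1, chr19:34583367-34583456 (+) for Ifit3, chr8:71537547-71537636 (-) for Bst2 and chr4:156200835-156200924 (-) for Isg15.
Ifit1: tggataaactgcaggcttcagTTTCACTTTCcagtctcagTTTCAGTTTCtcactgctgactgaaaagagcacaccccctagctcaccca
Ifit3: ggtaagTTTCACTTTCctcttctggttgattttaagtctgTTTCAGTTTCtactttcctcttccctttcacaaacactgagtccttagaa
Bst2: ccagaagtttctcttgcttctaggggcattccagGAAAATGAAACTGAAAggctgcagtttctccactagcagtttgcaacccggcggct
Isg15: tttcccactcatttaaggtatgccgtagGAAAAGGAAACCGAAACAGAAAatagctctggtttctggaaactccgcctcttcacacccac

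Ifit1 and Ifit3 hold 2 separate matches each, whereas the matches of Bst2 (2) and Isg15 (3) overlap in a run. The last base of the match nearest to the start lies 76 bases before it in Ifit1, 113 in Ifit3, 115 in Bst2 and 57 in Isg15.

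The UMIs of the antiviral list were spread over cells. After thinning to 3000 UMIs, which left out 1, 1, 1 and 0 members, the median member of both control skins held 3 UMIs of the antiviral list and that of the skin tumors 12 and 10, and the highest member held 20, 11, 113 and 84. The upper quartile of control members (5 and 4 UMIs) lay below the median of skin tumor members. The same members held a median of 27.5 and 23 residency UMIs (control skins) against 13 and 10 (skin tumors), 16.5 and 23 help UMIs against 8 and 9, and 3 and 3 Th2 UMIs against 1 and 1. Cells of 1 library are not replicates, and these distributions were not tested.

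**Figure D3:**
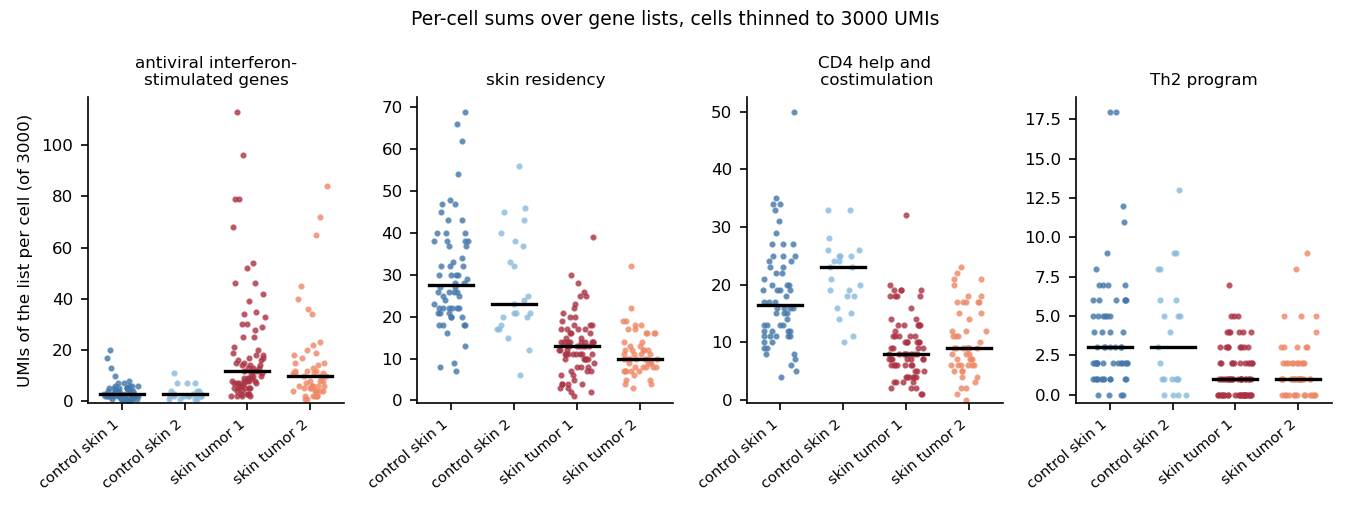
UMIs per cell of 4 gene lists after thinning each CD4 conventional T cell to 3000 UMIs, by library, where points are cells and bars are medians. Medians of the antiviral list were 3, 3, 12 and 10, in the order control skins 1 and 2 and skin tumors 1 and 2, and medians of the residency list 27.5, 23, 13 and 10.

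Genes of the IFN-γ response rose in smaller number. Of 28 tested members of 32 listed, 8 were higher, among them Serpina3g, Gbp2, Iigp1, Psmb9, Ly6a, Gbp7 and Psme1, and 0 lower, at a median of 0.793. Gbp2, a guanylate-binding protein, was at 4.04 and 0 CPM in control skins and 53.1 and 37.7 CPM in skin tumors (ratio 15.9, interval 4.18 to 135, adjusted p = 0.0131, edgeR). Psmb9, an immunoproteasome subunit, rose by 2.14 on the log2 scale, and B2m, the light chain of MHC class I, did not pass (0.48, adjusted p = 0.177, edgeR).

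Serpina3g, a protease inhibitor with near-identical copies that make its call uncertain, had no UMI in control skins and was at 113 and 73.2 CPM in skin tumors, at least 21.9-fold higher and in 25 and 17 members.

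Receptors of interferons were lower where their targets were higher. Ifnar2, a chain of the type I interferon receptor, was at 218 and 234 CPM in control skins and 70.2 and 46.6 CPM in skin tumors (-1.93 ± 0.306, adjusted p = 0.00486, edgeR). Ifngr1, the ligand-binding chain for IFN-γ, was at 1140 and 854 CPM in control skins and 553 and 464 CPM in skin tumors (-0.98 ± 0.238, adjusted p = 0.0309, edgeR). Il6ra, the IL-6 receptor, changed by -1.71 (adjusted p = 0.0291, edgeR). These were the only called genes among 24 tested of the JAK and STAT list, so that no Jak, Stat or Socs gene of that list passed. The calls on Ifngr1 and Il6ra were lost without control skin 1 and without skin tumor 2.

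Heat shock genes, which also respond to tissue digestion, rose strongly. Of 24 tested genes of dissociation, early response and heat shock, 12 were higher (Hspa1a, Hspa1b, Dnajb1, Hsph1, Hsp90aa1, Hspd1, Hspe1, Ier3, Dnaja1, Jun, Hspa8 and Hsp90ab1) and 0 lower, at a median of 1.08. The chaperone gene Hspa1a was at 226 and 20.8 CPM in control skins and 2848 and 2499 CPM in skin tumors (4.25 ± 0.593, adjusted p = 0.00284, edgeR), with reads it may share with the near-identical Hspa1b. Hsph1, a nucleotide exchange factor of HSP70, was at 170 and 120 CPM in control skins and 979 and 968 CPM in skin tumors (2.71 ± 0.257, adjusted p = 0.000630, edgeR). The list summed to 10290 and 7083 CPM in control skins and 20670 and 21160 CPM in skin tumors. Both skin tumors lay above both control skins in this sum, and its part in the other results was not tested.

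A heat shock element, searched as GAANNTTCNNGAA on both strands (TTCNNGAANNTTC on the other), was present in 0.466% of the same promoters, in 2 of 9 called genes of the list with an entry and in 0 of 10 tested but not called. The 2 genes, Hspe1 and Hspd1, encode the chaperonin pair of mitochondria and lie head to head, so they share the matches. Because 2 matches overlap in it, the window at chr1:55088025-55088114 (+) is shown.
Hspe1: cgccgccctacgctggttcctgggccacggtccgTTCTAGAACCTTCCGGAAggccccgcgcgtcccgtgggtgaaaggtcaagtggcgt

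Hspe1 and Hspd1 were both among the 12 higher genes, so they rose as a pair.

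Further lists were also counted. Among 17 tested activation-induced genes, Nfkbia was higher and Dusp5, Tnfaip3, Bcl2a1d and Bcl2a1b lower, where the Bcl2a1 genes are near-identical copies whose calls are uncertain. Dusp5, a phosphatase of ERK, was at 1084 and 849 CPM in control skins and 250 and 211 CPM in skin tumors (-2.07 ± 0.244, adjusted p = 0.00129, edgeR). Of 12 tested cytotoxic genes 3 were higher (Klrd1, Cst7 and Ifng) and Klrk1 was lower, while Nkg7 did not pass (0.69, adjusted p = 0.109, edgeR). Of 19 tested glycolysis and hypoxia genes 2 were lower, Hk2 (-1.22) and Ldha (-1.08). Of 82 ribosomal protein genes 0 passed in edgeR, DESeq2 or limma-voom (1 with an unadjusted p under 0.05 in edgeR), at a median of 0.00486, and mitochondrial transcripts summed to 20390, 20070, 17830 and 18910 CPM. Of 4 tested sex genes 2 were lower, the Y genes Eif2s3y (-1.22) and Ddx3y (-1.06), and 0 higher. The list summed to 1045 and 1016 CPM in control skins and 517 and 588 CPM in skin tumors, which did not overlap, and its part in the other results was not tested.

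**Figure D4:**
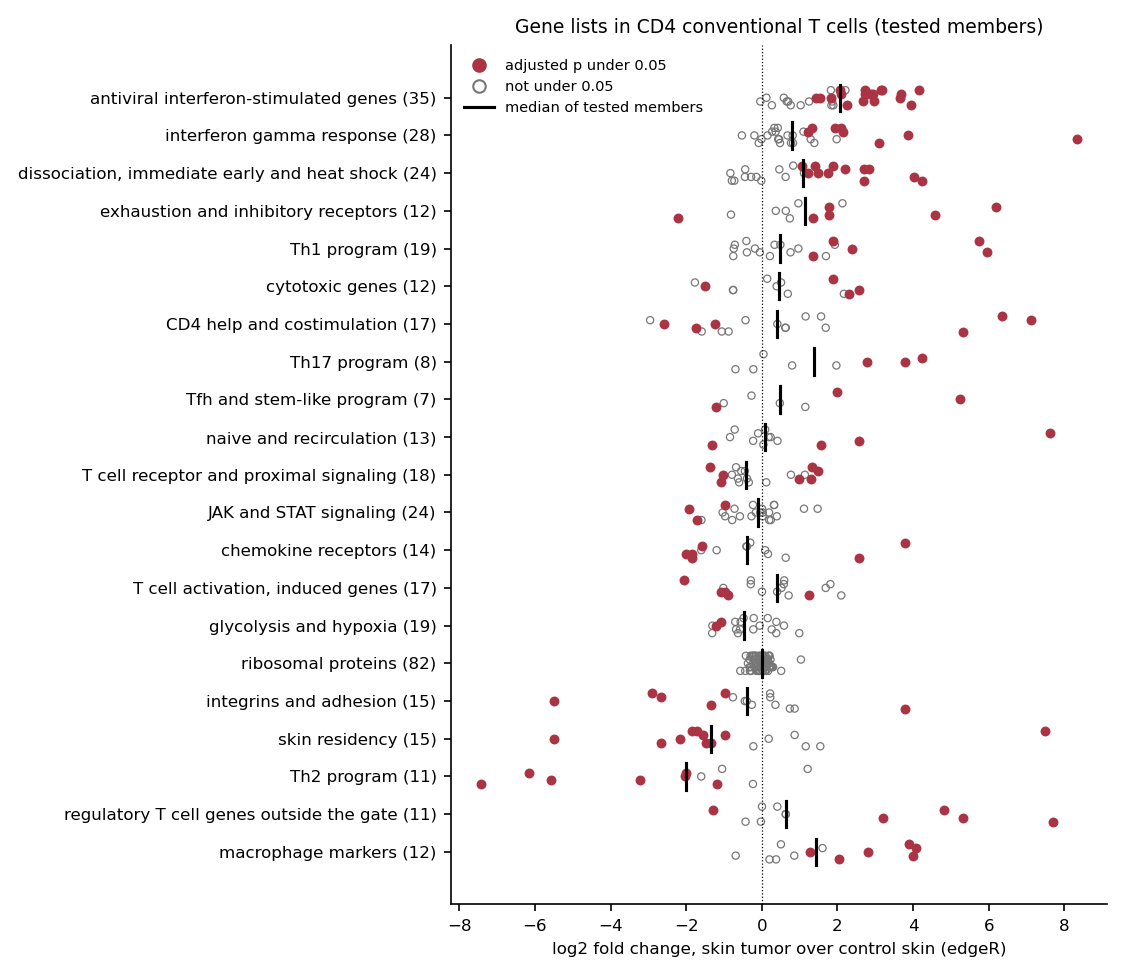
Log2 fold change (skin tumor minus control skin, edgeR) of each tested member of the gene lists. Filled red points are genes with an adjusted p under 0.05, open grey points are the others, and bars are list medians. The bars of the antiviral list (2.07) and the heat shock list (1.08) lie above 0 and those of the Th2 (-2.0) and residency (-1.35) lists below it. Values of genes without a UMI in a group depend on the prior count of the fit.

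The genes of largest change had no UMI in one group. The 12 genes of largest increase under the naming rule had 0 UMIs in both control skins, so only bounds are given. Dscam, a cell adhesion molecule best known in neurons, was at 151 and 133 CPM in skin tumors in 20 and 16 members, at least 32.8-fold higher. Plac8, which the study used as a monocyte marker, was at 149 and 133 CPM in 15 and 6 members (at least 32.6-fold higher). Igfbp7, a secreted binding protein of insulin-like growth factors, was at 115 and 166 CPM in 18 and 25 members (at least 31.4-fold higher). Synpo2 (32.3), Tff1 (26.6), Serpina3g (21.9), Exph5 (21.7), Dgki (20.4), Ptprk (19.3), Atp2b2 (18.2), Itgb8 (13.3) and Bace2 (13.1) followed with these lower bounds of the fold. Tff1 was seen in 7 and 15 skin tumor members and Itgb8, an integrin chain that activates TGF-β, in 10 and 13. Single cells held much of some of these genes, with 52.6% and 36.7% of the Ptprk UMIs of skin tumors 1 and 2, 39.7% and 37.5% of those of Atp2b2 and 39.5% of those of Tff1 in skin tumor 1. They also held 32.2% and 36.7% of the Plac8 UMIs, 35.1% of those of Dgki in skin tumor 1 and 32.7% of those of Synpo2 in skin tumor 2.

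Among the 12 of largest decrease, Dach2 had no UMI in skin tumors, but its control UMIs lay in 4 and 3 cells, with 56.2% and 73.8% in single cells. Cd7, a surface glycoprotein of T cells, was at 96.9 and 52.1 CPM in control skins and 1.71 and 2.22 CPM in skin tumors (ratio 0.0229, interval 0.00271 to 0.0866, adjusted p = 0.00241, edgeR). Phldb3, Tjp1, Agap1, Apbb2, Eml1 and the linker histone gene Hist1h1b were the others besides Il5, Il4, Calca and Itgae. The rule that chose these genes required that the groups do not overlap.

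Markers of other cells were measured in the same sums. Macrophage markers summed to 553 and 714 CPM in control skins and 1410 and 2477 CPM in skin tumors, with Apoe the most abundant and none at 0, and 6 of 12 tested were higher, among them C1qc, C1qa, C1qb, Apoe and Ctss. C1qa was at 6.05 and 20.8 CPM in control skins and 169 and 180 CPM in skin tumors, in 15 and 14 members, with 48.5% and 33.3% of its UMIs in single cells. The list as a whole was spread over most skin tumor members, as given above for thinned cells. Without the members removed as doublets, 0 of 10 tested macrophage markers were called in edgeR, and 5 had an unadjusted p under 0.05. Of all 5944 genes tested in that setting 495 were called. Macrophage RNA thus rose with the antiviral, IFN-γ and other higher genes, and beyond the counts given above for the narrower gates its part was not tested.

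Treg genes other than those of the gate showed 4 higher of 11 tested (Itgb8, Cd81, Ebi3 and Nrp1) and 1 lower (Tnfrsf1b). The list summed to 1843, 2161, 2124 and 2550 CPM, so the groups overlapped in this sum. Ikzf2, a gene of the gate, was detected in 7.94% and 4.17% of control members and in 22.4% and 26.4% of skin tumor members. A part of Treg-like cells in the higher genes was not tested. CD8 T cell markers outside the gate summed to 716 and 797 CPM in control skins and 1301 and 1194 CPM in skin tumors with Ccl5 the most abundant, 2 of 7 tested being higher and 1 lower. Lists of dendritic cells and MHC class II (1429, 4427, 1085 and 3719 CPM, mostly Cd74) and of NK cells (240, 359, 192 and 328 CPM, mostly Tyrobp, with Ncr1, Klra7, Klra8 and Klrb1c at 0) overlapped between groups. Summed markers of γδ T cells did not overlap, at 212 and 193 CPM in control skins against 113 and 166 CPM, with Fcer1g the most abundant, Blk at 0 and 0 of 2 tested genes called. A UMI of Trdc was held by 6 of 63 and 2 of 24 control members and by 0 of 76 and 0 of 53 skin tumor members. Without members that held a γδ receptor transcript, 421 genes were called, 393 of them shared with the 568. Neutrophil and mast cell markers reached at most 66.6 CPM (Retnlg and Gata2 at 0), B cell markers 25.7 CPM (Cd79a, Cd79b and Pax5 among those at 0), and keratinocyte, fibroblast and tumor cell markers 15.5 CPM (Krt5, Krt14, Krt8, Col1a1 and Col6a1 at 0).

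The change in skin tumors was compared with that of CD8 T cells and Foxp3 Treg cells of the same 4 libraries. In each of these fits gate and library were terms and the interaction was tested, and CPM values come from the scaling of that fit. Against CD8 T cells, 14 of 6729 genes (0.208%) differed. Cd40lg fell less in the members than in CD8 T cells: it was at 318, 255, 138 and 103 CPM in members and at 114, 92.9, 5.14 and 7.12 CPM in CD8 T cells, a difference of 2.98 ± 0.454 between the log2 changes (adjusted p = 0.0269, edgeR).

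Ccl1, the chemokine ligand of CCR8, rose in members and was too low to test in CD8 T cells alone. It was at 2.03, 20.4, 935 and 378 CPM in members and at 2.69, 107, 10.3 and 2.37 CPM in CD8 T cells, a difference of 8.66 ± 0.599 (adjusted p = 8.46e-05, edgeR). The Ccl1 UMIs of skin tumors came from 16 and 15 members, with 47.7% and 22.1% in single cells. Inpp4b, a phosphoinositide phosphatase, was at 363, 306, 1497 and 1775 CPM in members and at 282, 336, 442 and 318 CPM in CD8 T cells (adjusted p = 0.0429, edgeR). Il10ra, the IL-10 receptor chain, was at 128, 204, 89.3 and 72.6 CPM in members and at 30.5, 42.9, 148 and 124 CPM in CD8 T cells, a difference of -2.88 ± 0.368 (adjusted p = 0.0116, edgeR). It rose in CD8 T cells by 1.97 on the log2 scale, and its own change of -0.97 in members did not pass the test (adjusted p = 0.0986, edgeR).

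The remaining 10 of the 14 were Gzmc, Igfbp7, Lgals7, Ccl3, Ccl4, Fhit, Gadd45b, S100a4, Arhgap18 and Mxi1. DESeq2 called 16 genes in this comparison, of which only 8 were among the 14. Icos and the genes of several lists did not pass, which does not show that they changed alike. In their own fits Icos changed by -2.60 in members and -2.50 in CD8 T cells, and 0 of 37 tested antiviral genes, 0 of 15 residency genes and 0 of 24 heat shock genes differed in edgeR, with 5, 6 and 10 at an unadjusted p under 0.05. The comparisons share their libraries but not their cells. In CD8 T cells themselves, 20 of 37 tested antiviral genes were higher and 6 of 16 residency genes lower in skin tumors, with medians of 1.84 and -0.86, against 2.02% of 7178 genes higher and 2.15% lower in that fit. The count of 14 depended on single libraries, with 4 genes without control skin 1, 55 without control skin 2, 55 without skin tumor 1 and 133 without skin tumor 2.

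Against Foxp3 Treg cells, 128 of 6717 genes (1.91%) differed, 0.819% with a higher and 1.09% with a lower change in members, and 0 of 37 tested antiviral genes were among them (6 with an unadjusted p under 0.05 in edgeR). Itgae was at 680, 614, 246 and 213 CPM in Treg cells, a fall of 1.5 on the log2 scale against one of 5.49 in members, and the difference was -3.99 ± 0.535 (adjusted p = 0.00101, edgeR). Of 15 tested residency genes 5 fell more in members and 0 less. Trat1 was at 249, 123, 219 and 229 CPM in Treg cells with an own change of 0.26 that did not pass the test (difference -3.65 ± 0.353, adjusted p = 2.58e-05, edgeR). Icos was at 2290, 2514, 1157 and 1520 CPM in Treg cells, an own change of -0.85 that did not pass the test (adjusted p = 0.144), against -2.60 in members (difference -1.73 ± 0.268, adjusted p = 0.00206, edgeR).

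Of 19 tested Th1 genes, 2 (Tbx21 and Cxcr3) had a lower change in members than in Treg cells and 0 a higher one, against 1.09% of all genes lower. Tbx21 was at 19.4, 5.99, 48.2 and 114 CPM in Treg cells, where both skin tumors lay above both control skins, and the difference in change was -3.30 ± 0.540 (adjusted p = 0.00254, edgeR). Cxcr3 was at 6.48, 3.0, 69.1 and 68.2 CPM in Treg cells and at 62.0, 41.4, 55.4 and 24.8 CPM in members (difference -4.15 ± 0.803, adjusted p = 0.0111, edgeR). Tox was at 1646, 1873, 1429 and 1175 CPM in Treg cells, above the members in 4 of 4 libraries, a difference in level that did not pass the test (adjusted p = 0.0503, edgeR). The difference in change was 2.21 ± 0.306 (adjusted p = 0.00103, edgeR). The interferon receptor genes Ifnar2 (-1.94, adjusted p = 0.0340) and Ifngr1 (-1.63, adjusted p = 0.00901, both edgeR) also differed, by these differences of the log2 changes. Their own changes were -1.93 and -0.98 in members and 0.01 and 0.66 in Treg cells, where neither passed the test.

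**Figure D5:**
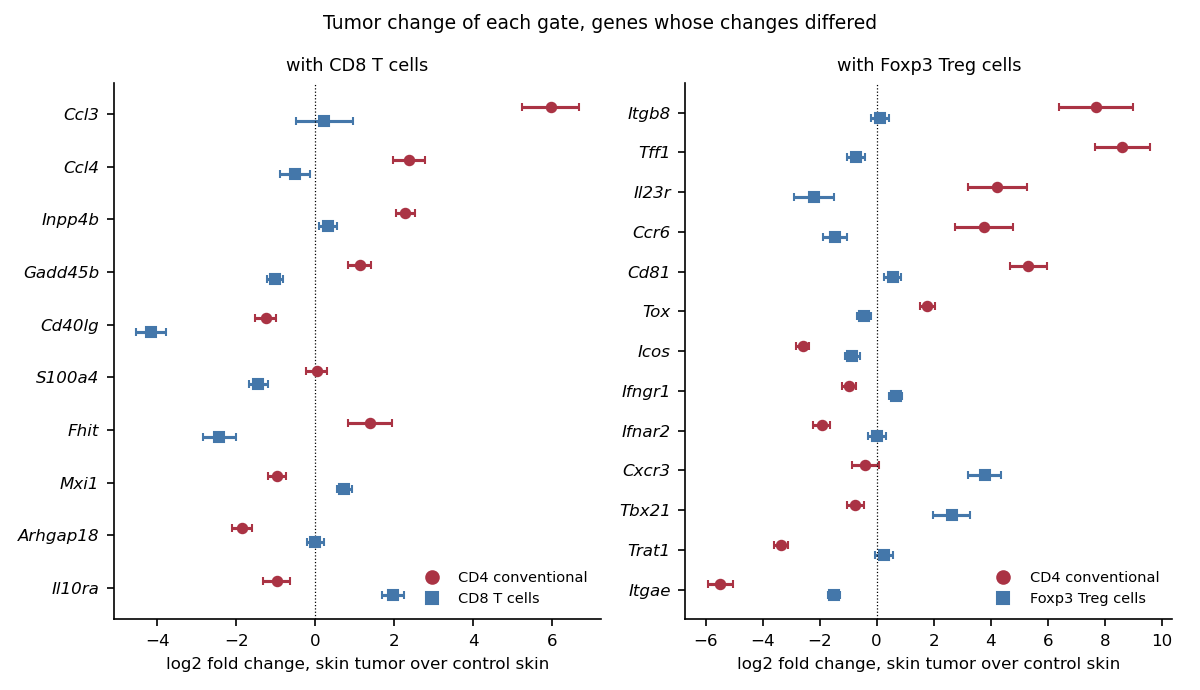
Log2 change in skin tumors (± SE, edgeR) of CD4 conventional T cells beside CD8 T cells (left) and Foxp3 Treg cells (right), for genes whose 2 changes differed at an adjusted p under 0.05. Cd40lg changed by -1.24 against -4.15 in CD8 T cells and Itgae by -5.49 against -1.5 in Treg cells. Fitted values of genes without a UMI in a group depend on the prior count.

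Levels over all 4 libraries were then compared on genes that no gate used. Against CD8 T cells, 243 of 6729 genes (3.61%) differed in level, 2.20% higher and 1.41% lower in members. Of 17 tested help genes 9 were higher and 1 lower in members, and of 11 Th2 genes 7 were higher and 0 lower. Of 18 cytotoxic genes 9 were lower and 0 higher, and of 10 CD8 markers 8 were lower and 0 higher. Penk, which encodes proenkephalin, was at 2.03, 35.7, 1286 and 345 CPM in members and 0, 0, 39.9 and 14.2 CPM in CD8 T cells, higher in 4 of 4 libraries (4.92 ± 0.281, adjusted p = 5.36e-06, edgeR). Ccr4, a skin-homing receptor, was at 190, 66.3, 32.0 and 59.4 CPM in members and 7.17, 4.76, 1.29 and 0 CPM in CD8 T cells (4.63 ± 0.393, adjusted p = 0.000200, edgeR). Gzmb, granzyme B, was at 50.7, 40.8, 11.8 and 15.4 CPM in members and 975, 646, 468 and 599 CPM in CD8 T cells (-4.64 ± 0.244, adjusted p = 4.21e-06, edgeR).

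Against Foxp3 Treg cells, 407 of 6717 genes (6.06%) differed in level, 2.81% higher and 3.25% lower in members. Of 16 tested Treg genes 10 were lower and 0 higher in members. Of 19 Th1 genes 8 were higher and 2 lower, and of 15 cytotoxic genes 5 were higher and 1 lower. Lrrc32, the surface docking protein of latent TGF-β on Treg cells, was at 0, 0, 0 and 2.25 CPM in members and 74.5, 53.9, 199 and 154 CPM in Treg cells. Ifng was at 90.9, 46.5, 284 and 259 CPM in members and 0, 0, 17.7 and 19.8 CPM in Treg cells (4.14 ± 0.388, adjusted p = 0.000269, edgeR). Tcf7 was at 132, 62.0, 109 and 65.4 CPM in members and at most 24.2 CPM in Treg cells, and Ctla4 was lower in members in 4 of 4 libraries (-2.69 ± 0.289, adjusted p = 0.000590, edgeR).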

How the data were processed

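Droplet 3′ libraries of CD45+ cells were made from 2 control skins and 2 skin tumors. The authors deposited filtered matrices of UMI counts per gene and cell, aligned to mm10 with Cell Ranger (7.1.0 in the submitters' notes, 7.0.1 in the file headers), with nothing normalized. Gene positions are from GENCODE M21 (GRCm38), which held 30934 of 31053 identifiers.

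Members and lists were chosen with earlier results of these data known. Counts were summed over gated cells per library and tested with edgeR 4.0.16 (TMM, filterByExpr, quasi-likelihood, Benjamini-Hochberg). Genes of the gate and mitochondrial genes got no call. DESeq2 1.42.0 and limma-voom 3.58.1 were alternatives, along with other filters, gates, thinning, a replicate block and leaving out each library. R 4.3.3, Python 3.11.15, scipy 1.17.1 and matplotlib 3.10.9 were used. The procedure was tested on simulated data. Doublets were scored per library and their removal was an alternative. Named were the 12 largest changes each way without overlap, up to 4 called genes a list, genes fixed by role, and the 6 largest differences each way from CD8 T and Treg cells. Other named genes, such as Cd28, Inpp4b and Zap70, were chosen after their values were seen. Some genes and an allele are not reported here.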

Additional observations from a re-analysis of the deposited data

Results flagged for a closer look

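Each gene here had a change in skin tumors that differed between CD4 conventional T cells and another gated population by the interaction test of edgeR, given as the difference of the log2 changes (members minus the other population).

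Against CD8 T cells the change was more positive in members for Gzmc (10.29), Igfbp7 (10.02), Ccl1 (8.66), Lgals7 (8.26), Ccl3 (5.62) and Fhit (4.02), and more negative for Il10ra (-2.88), Arhgap18 (-1.85) and Mxi1 (-1.70). Gzmc, a granzyme, was at 4.05, 0, 3.37 and 224 CPM in control skins 1 and 2 and skin tumors 1 and 2, and 1 cell held 76.5% of its UMIs in skin tumor 2. Igfbp7 was at 0, 0, 113 and 165 CPM in members and 26.0, 0, 12.2 and 11.9 CPM in CD8 T cells.

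Against Foxp3 Treg cells it was more positive for Ccl22 (10.42), Tff1 (9.33), H2-M2 (8.10), Creb5 (7.89), Itgb8 (7.74) and Frmd5 (7.71), and more negative for Eml1 (-4.87), Cxcr3 (-4.15), Itgae (-3.99), Trat1 (-3.65), Cd101 (-3.64) and Plcxd2 (-3.31). Ccl22, a chemokine of dendritic cells that binds CCR4, was at 2.07, 0, 1.73 and 131 CPM in members and 81.0, 3.0, 1.61 and 0 CPM in Treg cells. All Ccl22 UMIs of skin tumor 2 lay in 1 member, as did those of H2-M2 in skin tumor 2 and those of Frmd5, which had UMIs in 1 member of skin tumor 1 and in no other. Tff1 was at 0 CPM in the members of both control skins and at 97.2, 98.9, 49.8 and 70.4 CPM in Treg cells. Itgb8 was likewise 0 in control members and at 596, 306, 543 and 431 CPM in Treg cells. Fitted differences of genes with no UMI in a group depend on the prior count and are no bounds.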

How the results depend on the processing

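The number of genes called between skin tumors and control skins (568 in edgeR) was 299 in DESeq2, 931 with no filter, 317 with at least 2 Cd4 UMIs, 156 with Ikzf2 and Il2ra at 0, 147 with fewer than 3 MHC class II and macrophage UMIs, 347 after thinning and 74 without Ctla4 or Il2ra (chosen after seeing the data, as was the gate without γδ transcripts). Leaving out a library gave 276 (control skin 1) to 732 (control skin 2). With no filter the median of all genes was 0.27 and 59.0% of calls were higher, against 49.5% in the report. With the replicate block it was 901, all 568 among them, but same-numbered libraries shared only a number (correlation of deviations 0.0492 over 2 pairs).

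The 14 differences from CD8 T cells became 103 with no filter, 34 with Ikzf2 and Il2ra at 0 and 4 to 133 without a library. The 128 differences from Treg cells became 59 in DESeq2, 201 with no filter, 71 with Ikzf2 and Il2ra at 0 and 42 to 226 without a library. Level differences from CD8 T cells (243) became 535 with no filter and 142 to 228 without a library, and those from Treg cells (407) 730 and 179 to 314. The share of kept cells differed by 0.0868 to 1.36 points and that of αβ T cells by -1.57 to 12.2 points without a library, and by -0.182 with Ikzf2 and Il2ra at 0.

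Of 95 called named genes 36 kept their call under every alternative that tested them, and 0 reversed in 1621 gene and setting pairs, 225 of which lost the call. Genes not called that reversed under some setting were Isg15 (-0.46 to 0.54 without a library, negative without control skin 1 at -0.17 or skin tumor 2), Cd83 (-0.24 to 2.50 without a library, negative without skin tumor 2), Lamp1 (-0.13 with Ikzf2 and Il2ra at 0), Tcf7 (-0.68 to 0.49 without a library, positive without control skin 1 or, at 0.08, skin tumor 2, 0.065 with Ikzf2 and Il2ra at 0, 0.13 without Ctla4 or Il2ra), Lef1 (-0.11 to 0.39 without a library, negative without control skin 1 or, at -0.08, skin tumor 1, and -0.26 with 2 Cd4 UMIs) and Cxcr3 (-1.13 to 0.046 without a library, positive without skin tumor 2, and 0.22 with 2 Cd4 UMIs). The cause was not tested. With 24 members in control skin 2, genes under a few CPM there rest on 1 or no UMI.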

Other observations

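Transcripts of several helper programs were counted per cell. A UMI of Bcl6, Cxcr5 or Il21 was held by 42 of 63 and 17 of 24 members of control skins and by 28 of 76 and 30 of 53 members of skin tumors. Ifng and Cd40lg were held together by 16, 2, 18 and 11 members. Nrp1, a co-receptor found on Treg and other T cells, was at 26.2 and 5.21 CPM in control skins and 216 and 147 CPM in skin tumors (log2 fold change 3.21, adjusted p = 0.00352, edgeR). These cell counts were not tested.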
